A study of Mus musculus with 3 samples.

Results

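Cytosolic RNA of macrophages given lipid A was examined for 10 genes of the death receptor, inhibitor of apoptosis (IAP) and necroptosis machinery, namely Ripk1, Ripk3, Mlkl, Casp8, Cflar, Birc2, Birc3, Xiap, Fadd and Tradd. They were taken by gene symbol from the 55418 annotated symbols of the deposited tables, and each symbol matched 1 gene identifier in all 3 libraries. The rule uses symbols and no measured value. The leading transcript of the set was that of Cflar, the catalytically inactive homologue of Casp8, at a mean of 107 ± 16.8 TPM (length-corrected transcript abundance scaled per library, SD, n = 3), against 2.34 ± 0.289 TPM for the adaptor Fadd, the lowest of the 10.

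Ligation of tumour necrosis factor receptor 1 assembles a membrane complex around the adaptor TRADD and the kinase RIPK1, in which the ubiquitin ligases cIAP1 (Birc2) and cIAP2 (Birc3) modify RIPK1 and so favour NF-kB signalling over death. When that brake is released, FADD, caspase-8 and RIPK1 form a cytosolic complex that leads to apoptosis, and when caspase-8 is blocked, RIPK3 phosphorylates MLKL, which permeabilises the plasma membrane (necroptosis). The long form of c-FLIP (Cflar) pairs with caspase-8 and limits its processing, XIAP inhibits effector caspases, and in macrophages Toll-like receptor 4 can reach RIPK1 and RIPK3 through the adaptor TRIF.

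The samples were bone marrow-derived macrophages, primary cells of the mouse strain C57BL/6J, stimulated with lipid A, the membrane anchor of bacterial lipopolysaccharide and a ligand of Toll-like receptor 4, at 100 ng/ml for 90 min. Total RNA of the cytosolic fraction was depleted of ribosomal RNA and sequenced from 1 µg of RNA per library. There was 1 group of 3 libraries, labelled biological replicates 1, 2 and 3, which carry the same donor identifier, while sex and age were not collected. With no untreated, nuclear or later samples among them, the comparisons were made between genes within a library, between libraries and between the 2 quantifications that the authors deposited, one from transcriptome alignments (the first, used unless the second is named) and one straight from the reads (the second). P-values rest on the spread between these libraries, which the labels do not tie to separate animals. In the limma tests the spread of a gene is combined with the variance pooled over all genes of the fit.

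The libraries held 33821479, 47843161 and 59390843 expected counts (replicates 1, 2 and 3). Summed levels of 6 macrophage markers were 6716, 4877 and 4728 TPM, those of 6 neutrophil markers 38.6, 21.3 and 36.2 TPM with Ly6g at 0 in every library, and those of 5 T and NK, 4 B and 4 fibroblast markers stayed at or below 0.29 TPM in every library. The nuclear RNAs Malat1 and Neat1 both rose from replicate 1 to 3, Malat1 at 128, 335 and 913 TPM and Neat1 at 12.9, 24.1 and 66.9 TPM. Their part in the results below was not tested. Levels were set in each library against a reference, the median over the 8747 protein-coding genes that averaged 1 TPM or more, which was 7.38, 6.08 and 6.21 TPM. A gene was called above or below it when its mean difference in log2(TPM + 0.1) was at least 1 with an adjusted p under 0.05 (limma over 13327 genes, Benjamini-Hochberg).

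Stretches of the coding sequences are shown for Cflar and Mlkl, since in these genes the deposited transcript values split between coding sequences that differ by a clean junction. The sequences are those of GENCODE M21 on mm10, 5′ to 3′ on the coding strand. Cflar (ENSMUSG00000026031.15) lies at chr1:58711508-58758884 on the plus strand. Its transcripts Cflar-205 and Cflar-204 share the first 612 bases of coding sequence and then diverge, with 831 further coding bases in Cflar-205 and 33 in Cflar-204. The run starts at coding base 589, and capitals mark the part that the other transcript lacks.
Cflar-205: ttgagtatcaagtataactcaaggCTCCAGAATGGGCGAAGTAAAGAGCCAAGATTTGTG
Cflar-204: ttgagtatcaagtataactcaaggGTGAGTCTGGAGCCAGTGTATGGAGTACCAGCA
Mlkl (ENSMUSG00000012519.14) lies at chr8:111311797-111338177 on the minus strand. Its transcripts Mlkl-201 and Mlkl-202 differ in coding sequence by a block of 24 bases after coding base 1342, which keeps the reading frame. The run starts at coding base 1319, and capitals mark the block that Mlkl-202 lacks.
Mlkl-201: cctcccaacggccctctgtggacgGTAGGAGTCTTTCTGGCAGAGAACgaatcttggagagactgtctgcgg
Mlkl-202: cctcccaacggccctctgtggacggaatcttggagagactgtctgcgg

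Across the set, 3 of the 10 genes lay above the reference, Cflar, Birc3 and Casp8, where 20.5% of all genes tested did. The adaptors Tradd and Fadd, 2 of the 10, lay below it, against 50.6% of all genes tested. The other 5 genes met neither call. The median difference of the 10 genes was 0.50 on the log2 scale, and that of all genes tested was -1.06. The genes tested included all biotypes from a mean of 0.1 TPM, whereas the reference took protein-coding genes from 1 TPM. Genes averaging under 1 TPM lie low against it by construction, and all 10 genes averaged more (Fadd, the lowest, 2.34 TPM). Shares among protein-coding genes from 1 TPM were not computed. The genes called above were the caspase-8 regulator, which has no protease activity itself, an IAP ligase and caspase-8, and those called below were adaptors. The calls of Cflar, Birc3 and Fadd held under all alternatives run, and those of Casp8 and Tradd did not. In bulk RNA, a level shared by all cells and one carried by fewer cells cannot be told apart.

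**Figure D1:**
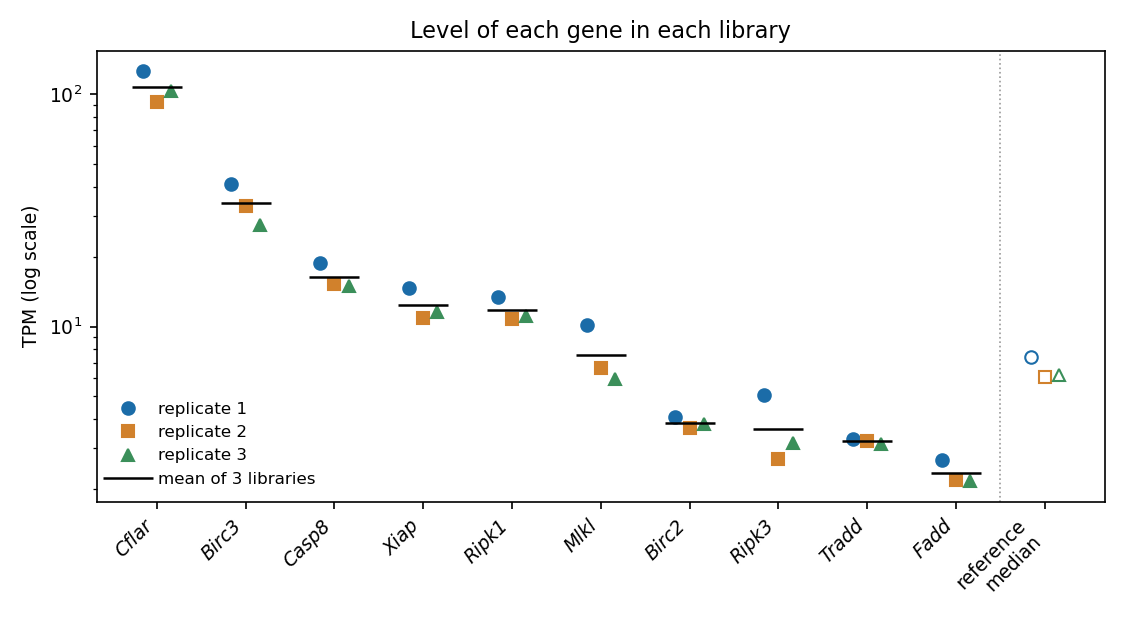
TPM of each of the 10 genes in each library on a log axis (filled symbols, 1 per replicate; black bars, mean of 3 libraries), ordered by mean, with the reference median of each library as open symbols at the right. Cflar stood at 92.6 to 126 TPM, above all other genes of the set in every library, and Fadd at 2.16 to 2.67 TPM, below all others.

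Caspase-8 is the initiator protease of death receptor signalling, and Cflar encodes its homologue without protease activity. Cflar gave 126, 92.6 and 103 TPM in replicates 1, 2 and 3 and was 4.002 ± 0.085 log2 units higher than the reference (SD, n = 3; 3 of 3 libraries; limma, adjusted p = 3.17e-05). Its mean level was above that of 95.95% of the same protein-coding genes. Casp8 (chr1:58795374-58847503, plus strand), downstream of Cflar on chromosome 1, gave 18.9, 15.2 and 14.9 TPM. It exceeded the reference by 1.30 ± 0.05 log2 units (3 of 3 libraries; limma, adjusted p = 0.000111). Against the reference of the second quantification the call was lost (0.83). There the 1 TPM cut was kept on TPM that were lower as a whole, so the reference genes were not the same. Casp8 itself differed by -0.01 ± 0.01 log2 units between the quantifications after centring. No library of Cflar came near any library of Casp8.

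Set directly against each other, Cflar exceeded Casp8 by 2.73, 2.60 and 2.78 log2 units, a mean of 2.70 ± 0.09 or 6.503-fold (limma over the ratios of all genes to Casp8, adjusted p = 2.48e-05). Of all genes, 8.97% were called higher than Casp8 by the same rule. The aligned coding sequences of Casp8-202 and Cflar-205 were 65.6% identical over 1257 bases. A stretch of 598 bases of Cflar-205 (bases 167 to 764) was however identical to the annotated gene Gm9845, which was listed at 2.91 TPM, so counts within it could be assigned to either.

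The 2 coding sequences of Cflar printed above were present in every library. A further one, that of Cflar-202 with 1452 coding bases, was listed at 0.03, 0.05 and 0.03 TPM in the first quantification. In the second it was listed at 0.14, 0.12 and 0.31 TPM (replicates 1, 2 and 3). The short forms of c-FLIP keep the paired death effector domains and lack the caspase-like domain. Cflar-205, 6572 bases long and carrying the long coding sequence printed above, took 76.7% ± 1.06 of the TPM of the gene and 93.1% of its expected counts. Cflar-204, 2010 bases long with the short coding sequence, took 13.1% ± 1.47 of the TPM and 4.49% of the counts. Its level was 18.1, 10.7 and 13.8 TPM, lower than the whole Casp8 gene in every library and by the most in replicate 2. The long exceeded the short coding sequence 4.92-fold, 6.13-fold and 5.01-fold in the second quantification. In the first the ratios were 5.32, 6.74 and 5.66 in replicates 1, 2 and 3. Replicate 2 was highest in both.

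Casp8 also divided by coding sequence. Casp8-203 and Casp8-204, with 1500 coding bases, took 26.0% ± 6.43 of its TPM in the second quantification and 10.03% ± 1.66 in the first, and Casp8-201 and Casp8-202, with 1440 coding bases, took the rest. By library, the shares of the longer coding sequence were 18.9%, 31.3% and 27.9% in the second quantification, against 8.91%, 11.9% and 9.24% in the first, with no overlap. Casp8 as a gene differed by only -0.01 ± 0.01 log2 units between them after centring.

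Among the inhibitors of apoptosis, the IAP ligase induced by NF-kB, Birc3, stood far above its paralogue Birc2. Birc3 (chr9:7848699-7873186, minus strand) gave 41.1, 33.2 and 27.3 TPM, higher than the reference by 2.34 ± 0.19 log2 units (3 of 3 libraries; limma, adjusted p = 0.000105). Birc2 (chr9:7818227-7837064, minus strand), which lies near it on chromosome 9 and encodes cIAP1, gave 4.09, 3.67 and 3.81 TPM. That was -0.75 ± 0.08 log2 units from the reference, short of a call in spite of a small spread (3 of 3 libraries lower; limma, adjusted p = 0.00069). Birc2 was the steadier of the pair, and the lowest library of Birc3 was well above the highest of Birc2.

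Birc3 exceeded Birc2 by 3.30, 3.14 and 2.81 log2 units, a mean of 3.08 ± 0.25 or 8.47-fold (limma over the ratios of all genes to Birc2, adjusted p = 5.68e-05; 30.4% of all genes were called higher than Birc2). Their coding sequences were 76.6% identical over 1771 aligned bases. Birc3 also shared 369 bases at 99.2% identity with the annotated gene Gm7019, listed at 0.083 TPM.

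Xiap (chrX:42059679-42109656, plus strand), the direct inhibitor of caspases 3, 7 and 9, stood between the 2 ligases. It gave 14.6, 10.9 and 11.5 TPM, 0.89 ± 0.07 log2 units above the reference and short of a call (3 of 3 libraries higher; limma, adjusted p = 0.000386). Xiap exceeded Birc2 by 1.81, 1.54 and 1.57 log2 units, a mean of 1.64 ± 0.15 or 3.12-fold (limma over the ratios of all genes to Birc2, adjusted p = 0.000134). All 3 libraries thus gave the order Birc3, Xiap, Birc2.

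**Figure D2:**
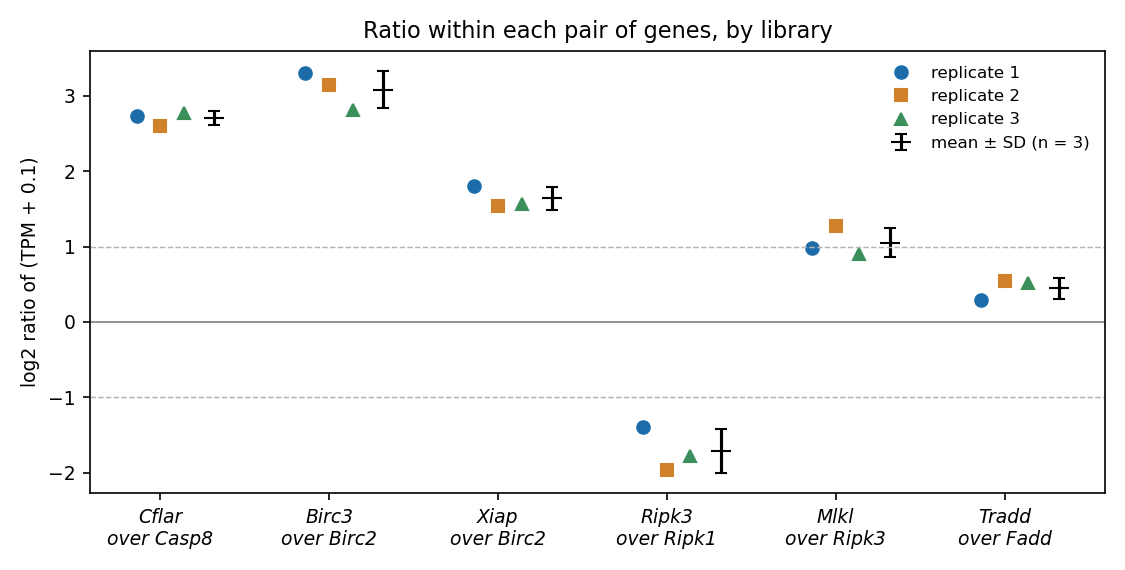
Log2 ratio of TPM + 0.1 between the genes of 6 pairs in each library (symbols, 1 per replicate) with the mean and SD of 3 libraries beside them; dashed lines mark the difference of 1 that a call needed. The ratios kept their sign in 3 of 3 libraries for every pair, with Birc3 over Birc2 at 2.81 to 3.30 and Tradd over Fadd at 0.29 to 0.54.

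Transcripts of the protein-coding biotype took 72.2% of the TPM of Xiap, 80.3% of that of Birc3 and 84.7% of that of Birc2, against a median of 95.7% among 7259 genes with both kinds of transcript. Ripk3 (75.6%), Cflar (89.8%) and Tradd (94.5%) were also under that median, and Ripk1 (97.2%) and Mlkl (97.8%) were over it. Ripk3 changed sides in the second quantification, at 94.2% against a median of 93.3%. In Xiap the 4 transcripts Xiap-201 to Xiap-204 share 1 coding sequence and together took 69.7% ± 0.672, while Xiap-207, a processed transcript of 5407 bases, took 3.79% in the second quantification and 21.2% ± 0.730 in the first. In Birc3 the short processed transcripts Birc3-205 and Birc3-206, of 355 and 360 bases, together took 39.6% ± 3.53 of the TPM on 4.396% of the counts in the second quantification. In the first they took 15.3% ± 3.05 of the TPM on 1.11% of the counts, and Birc3-201 took 77.6% ± 2.76 of the TPM on 96.4% of the counts. In Birc2, Birc2-202 and Birc2-204 share a coding sequence and took 84.2% ± 4.67 together, and the processed transcript Birc2-205 took 12.8% in the second quantification and 6.85% ± 2.95 in the first.

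**Figure D3:**
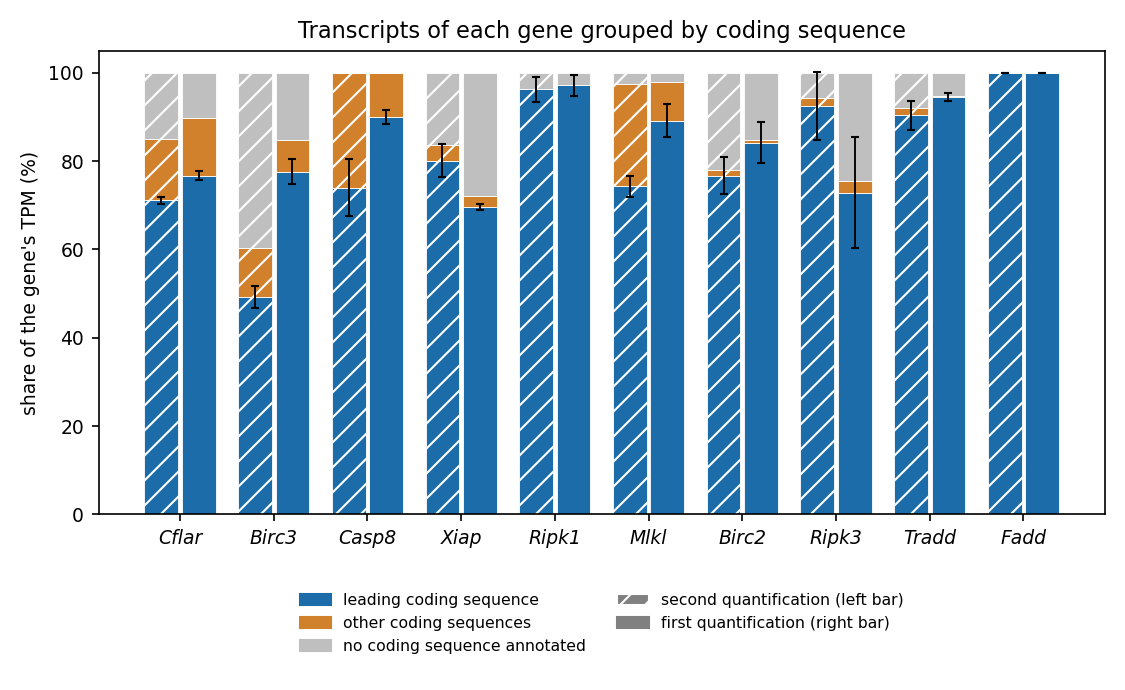
Share of the TPM of each gene in transcripts with its leading coding sequence (blue), other coding sequences (orange) and no annotated coding sequence (grey), in the second (left, hatched) and first (right, plain) quantification; bars are means of 3 libraries and error bars the SD of the leading class. The quantifications differed most for Birc3, where the leading class took 49.2% in the second and 77.6% in the first, and agreed for Fadd, which has 1 annotated transcript.

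Mlkl and Ripk3, the membrane-permeabilising effector of necroptosis and the kinase that activates it, were the least even of the 10 genes between libraries. Mlkl gave 10.1, 6.61 and 5.96 TPM, 0.17 ± 0.26 log2 units from the reference and on both sides of it (2 of 3 libraries higher; limma, adjusted p = 0.252). Ripk3 (chr14:55784995-55788865, minus strand) gave 5.05, 2.68 and 3.15 TPM on 351, 384 and 449 expected counts. It lay -0.88 ± 0.31 log2 units from the reference (3 of 3 libraries lower; limma, adjusted p = 0.00602). Without replicate 1, the highest library, it was called below (-1.08). It was also called below in the second quantification (-1.68), against the reference genes of that quantification. Replicate 1 was highest for both genes, as it was in TPM for all of the 10 genes. The macrophage marker sum was also highest in replicate 1 and Malat1 lowest there, and their part in these values was not tested. Most of that sum was Lyz2 (5507 TPM in replicate 1), and of the macrophage markers Mrc1 alone was highest in another library, replicate 3.

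RIPK1 is the kinase that sits at the branch point between survival, apoptosis and necroptosis. Ripk1 (chr13:34002363-34037147, plus strand) gave 13.5, 10.8 and 11.1 TPM, 0.83 ± 0.02 log2 units above the reference, with the smallest SD of the 10 genes on that measure and no call (3 of 3 libraries higher; limma, adjusted p = 0.000312). Ripk1-201 took 83.2% ± 2.11 and Ripk1-203, which has the same coding sequence and is 6472 bases long, 14.02% ± 0.280 of its TPM. Ripk1-203 contains the annotated gene Gm17084 on the same strand, identical over 511 bases and listed at 2.62 TPM. Serpinb6a, on the opposite strand and at 187 TPM, shares 241 of the 8344 exon bases of Ripk1, and the sources used here do not give the strand setting of the counting.

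Ripk3 was lower than Ripk1 in every library, with log2 ratios of -1.40, -1.97 and -1.78, a mean of -1.71 ± 0.29 or 0.305-fold (limma over the ratios of all genes to Ripk1, adjusted p = 0.000552; 63.1% of all genes were called lower than Ripk1). Mlkl exceeded Ripk3 by 0.99, 1.27 and 0.90 log2 units, a mean of 1.05 ± 0.19 or 2.07-fold (limma over the ratios of all genes to Ripk3, adjusted p = 0.00142; 32.4% of all genes were called higher than Ripk3). This last call was lost without replicate 2 (0.94) and with a pseudocount of 1 TPM (0.89). Ripk3 was thus the lowest of the 3 necroptosis genes in each library.

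The transcripts of Ripk3 and Mlkl differed between libraries as well. Ripk3-201 carried 62.8%, 86.9% and 68.9% of the TPM of Ripk3 in replicates 1, 2 and 3 of the first quantification. The second quantification put 92.4% ± 7.76 on Ripk3-201, against 72.9% ± 12.5 in the first. Most of the remainder in the first was Ripk3-206, a retained-intron transcript of 478 bases, with 23.6% ± 14.3 of the TPM on 4.91% ± 3.14 of the expected counts. With protein-coding transcripts alone, an alternative chosen after seeing the data, Ripk3 lay -1.19 log2 units from the reference and was called below it.

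For Mlkl, the form without the 24-base block predominated. In the first quantification Mlkl-202 took 85.3%, 92.7% and 89.4% of the TPM and Mlkl-201 took 13.0%, 4.08% and 9.06%. The ratio of Mlkl-202 to Mlkl-201 was 5.06, 6.65 and 8.12 in the second quantification and 6.58, 22.7 and 9.87 in the first, so the high value of replicate 2 stood in the first alone. Mlkl-204, a transcript of 593 bases, took 11.6% ± 1.46 in the second quantification and was listed at 0 in every library of the first.

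FADD links receptors to caspase-8 through its death effector domain, and TRADD links tumour necrosis factor receptor 1 to RIPK1 and FADD through death domains. Tradd (chr8:105258286-105264609, minus strand) gave 3.28, 3.22 and 3.13 TPM on 274, 432 and 507 expected counts. It lay -1.003 ± 0.129 log2 units from the reference, at the edge of the call (3 of 3 libraries lower; limma, adjusted p = 0.000535), and the call was lost without replicate 1 (-0.95). Fadd (chr7:144577318-144582463, minus strand) gave 2.67, 2.18 and 2.16 TPM and lay -1.45 ± 0.03 log2 units from the reference (3 of 3 libraries lower; limma, adjusted p = 7.81e-05). Faddos, which overlaps Fadd on the opposite strand and shares 239 of the 3903 exon bases of Fadd, was listed at 0.057 TPM.

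Tradd exceeded Fadd by 0.29, 0.54 and 0.52 log2 units, a mean of 0.45 ± 0.14 or 1.36-fold, under the difference that a call needed (limma over the ratios of all genes to Fadd, adjusted p = 0.00791; 40.8% of all genes were called higher than Fadd). Tradd-201 took 94.5% ± 0.900 of the TPM of Tradd, and Fadd has the single transcript Fadd-201. In each ratio test the partner's own 3 values enter the ratio of every gene, so the pooled variance rests in part on them and the p-values can be too small. With the partners exchanged, an alternative chosen after seeing the data, the adjusted p-values of the 6 pairs ran from 1.55e-07 to 0.0109 by limma. The lowest was that of Ripk3 and Ripk1. In that fit, and in the main fit of Mlkl over Ripk3, limma used the pooled variance alone, so the spread of the pair itself did not enter its p-value. An exact sign-flip test on 3 libraries cannot go below p = 0.25.

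In the order of levels, Cflar, Birc3, Casp8, Xiap, Ripk1 and Mlkl held places 1 to 6 and Fadd place 10 in every library. Xiap exceeded Ripk1 by only 0.06 ± 0.05 log2 units (0.12, 0.01 and 0.06), so that their order, though the same in 3 of 3 libraries, rests on a small margin. Birc2, Ripk3 and Tradd exchanged places 7 to 9. Birc2 over Ripk3 was 0.14 ± 0.39 and Ripk3 over Tradd 0.12 ± 0.44 log2 units, each with the first gene higher in 2 of 3 libraries. These neighbours did not differ beyond their spread. The interval bounds that the authors deposited, on the TPM scale, were 4.57 to 6.82 for Ripk3 and 2.98 to 3.98 for Tradd in replicate 1. In replicate 2 they were 2.59 to 3.76 for Ripk3 and 2.98 to 3.70 for Tradd, and in replicate 3 they were 2.89 to 4.13 for Ripk3 and 2.91 to 3.60 for Tradd, so the intervals of these genes overlapped in replicates 2 and 3 and not in replicate 1. Of the 30 TPM values of the set, 29 lay inside their deposited bounds, and Cflar in replicate 1 lay just over its upper bound of 125.4 at 125.5 TPM.

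Variation between libraries was measured on expected counts of 12330 genes, scaled by TMM to log2 CPM, counts scaled to library size. None of the 10 genes departed from the dispersion trend (edgeR goodness of fit, Benjamini-Hochberg), against 2.28% of all genes tested, and 0 of 10 did at an unadjusted p under 0.05 or with DESeq2 size factors. The lowest unadjusted p of the 10 in edgeR was 0.0881, for Mlkl. On simulated counts this test missed the larger part of genes raised 2-fold in 1 library, so the absence of calls does not show that the 10 genes were even. The median SD of the 10 genes was 0.0845 log2 CPM, against 0.120 over all genes.

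On that scale Mlkl was the most variable of the set, at 4.88, 4.53 and 4.38 log2 CPM with an SD of 0.258, a 1.42-fold range and a higher SD than 80.0% of genes. Ripk3, at 3.32, 3.05 and 2.97, had an SD of 0.186, and Birc3, at 7.09, 6.99 and 6.80, an SD of 0.150. All of these ran highest in replicate 1. The steadiest were Fadd (4.05, 4.03 and 3.99; SD 0.0298), Casp8 (5.92, 5.87 and 5.85; SD 0.0347) and Ripk1 (6.31, 6.23 and 6.24; SD 0.0431), while Birc2 and Tradd were highest in replicate 2. In TPM, by contrast, all 10 genes were highest in replicate 1, as was the reference median.

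**Figure D4:**
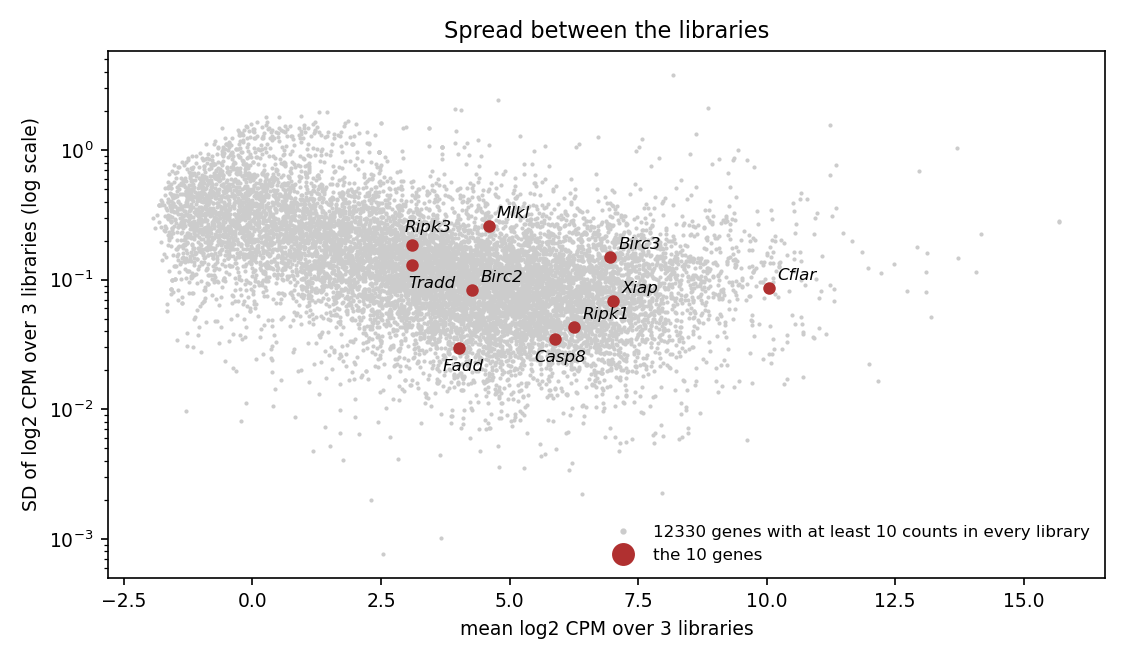
SD of log2 CPM over the 3 libraries (log axis) against mean log2 CPM for 12330 genes (grey) and the 10 genes (red). Mlkl, with an SD of 0.258, and Ripk3, with 0.186, lie at the top of the set, and Fadd, Casp8 and Ripk1 at the bottom with 0.0298 to 0.0431.

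The quantifications were compared gene by gene over 9476 genes. TPM of these genes were lower as a whole in the second, with a median log2 ratio to the first of -1.02, -1.22 and -1.52 in replicates 1, 2 and 3, so the ratios were centred on these medians. Cflar, for example, gave 63.1, 40.0 and 35.0 TPM in the second and 126, 92.6 and 103 TPM in the first, a centred difference of 0.00 ± 0.03 log2 units. None of the 10 genes was called by limma, against 2.72% of all genes called higher and 1.88% lower, while 3 of the 10 had an adjusted p under 0.05 with differences under 1. By that rule without a minimum difference, 25% of all genes were higher and 24.2% lower in the second. The 3 genes were Birc3 at 0.51 ± 0.11 (3 of 3 libraries higher in the second; limma, adjusted p = 0.011), Mlkl at 0.18 ± 0.01 (3 of 3 higher; limma, adjusted p = 0.00918) and Ripk3 at -0.33 ± 0.13 (3 of 3 lower; limma, adjusted p = 0.0265). Each of these 3 genes has short transcripts whose TPM share differed between quantifications (Birc3-205 and Birc3-206, Mlkl-204, Ripk3-206), and their part in the differences was not tested.

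Beside the 10 genes, 65 other genes of the same pathway were counted, of which 59 had the mean of 0.1 TPM needed for a test. Of these 59, 26 (44.1%) lay above the reference and 8 (13.6%) below it, against 20.5% above and 50.6% below over all genes tested, and 25 met neither call. All genes tested again included every biotype from a mean of 0.1 TPM, so the shares do not compare genes alike in biotype and level. Their median difference was 0.47 log2 units. By role and among those tested, 2 of 3 ligands, 4 of 8 receptors, 12 of 23 ubiquitin and kinase checkpoints of the receptor complex, 2 of 11 genes of the caspase and mitochondrial arm, 1 of 5 other IAP family genes and 5 of 9 necroptosis regulators lay above. In the same order, 1, 1, 2, 1, 3 and 0 lay below.

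Among the ligands, Tnf, the cytokine that drives this pathway, averaged 764 ± 162 TPM and Tnfsf12, encoding TWEAK, 29.9 ± 1.60 TPM, both above the reference, while Fasl was listed at 0, 0 and 0.01 TPM. Of the receptors, Tnfrsf1b reached 212 ± 14.4 TPM and Tnfrsf1a, a receptor with a death domain in its cytosolic tail, 27.3 ± 4.27 TPM, again both above, and Tnfrsf25 was at 0, 0 and 0.01 TPM. Tnf was thus higher than every one of the 10 genes in each library.

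Among the checkpoints, Tnfaip3, encoding the ubiquitin editor A20, averaged 318 ± 47.4 TPM and Mapkapk2, a kinase that phosphorylates RIPK1, 132 ± 41.5 TPM. Both lay above the reference and above Cflar in mean level. Usp21, encoding a deubiquitinase, averaged 2.52 ± 0.401 TPM and lay below it, at -1.35 ± 0.07 log2 units (3 of 3 libraries; limma, adjusted p = 0.00012). In the caspase and mitochondrial arm, Apaf1, the scaffold of the apoptosome, averaged 24.2 ± 4.87 TPM and Xaf1, encoding a partner of XIAP, 15.2 ± 4.49 TPM. Both lay above the reference, and Sept4 was listed at 0, 0.02 and 0 TPM.

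Of the other IAP family genes, Birc6, which encodes a giant ubiquitin-conjugating protein, averaged 16.9 ± 1.504 TPM and lay above the reference, Naip2, encoding a sensor of bacterial proteins, averaged 6.39 ± 0.663 TPM and met neither call, and Birc7 was listed at 0 in every library. Birc3 was therefore the highest gene of the IAP family measured here, at 33.9 ± 6.91 TPM. Among the regulators of necroptosis, Hsp90aa1, encoding a chaperone of RIPK1 and RIPK3, averaged 75.2 ± 4.19 TPM and Peli1, a ubiquitin ligase gene, 42.0 ± 13.4 TPM, both above the reference. Pgam5, encoding a mitochondrial phosphatase, had the lowest level of the group at 3.24 ± 0.455 TPM and lay -0.997 ± 0.053 log2 units from the reference, just short of a call (3 of 3 libraries lower; limma, adjusted p = 0.000231).

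**Figure D5:**
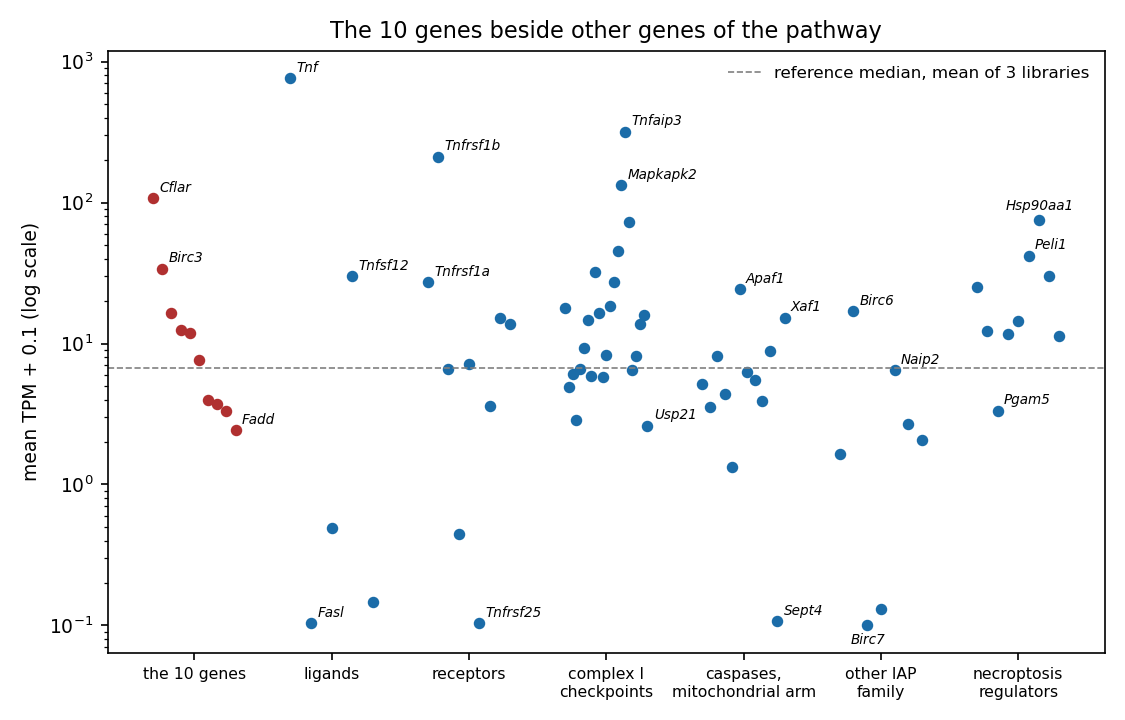
Mean TPM + 0.1 over 3 libraries on a log axis for the 10 genes (red) and 65 other genes of the pathway by role (blue), with the named genes labelled; the dashed line is the reference median averaged over libraries. Tnf at 764 TPM, Tnfaip3 at 318 TPM, Tnfrsf1b at 212 TPM and Mapkapk2 at 132 TPM stood above Cflar at 107 TPM.

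The genes nearest in level profile over the 3 libraries were taken as the 3 protein-coding genes at the smallest Euclidean distance in log2(TPM + 0.1). For Cflar these were Snx5 (distance 0.049), Cd84 (0.098) and Pik3ap1 (0.114), and for Fadd they were Prepl (0.041), Dvl2 (0.045) and Fam98a (0.046). With 3 libraries of 1 group, the measure says only that their levels and their differences between libraries were alike.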

How the data were processed

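Per the descriptions deposited with the tables, the authors used mm10 with the GENCODE M21 annotation and made, for each library, gene and transcript values from transcriptome alignments (the first quantification) and transcript values from the FASTQ files (the second). The deposited columns of the first are, per the file headers, TPM, FPKM, expected counts and the lower and upper bounds of a TPM interval (a signal on the TPM scale, of unstated level). Those of the second are TPM and estimated counts. The sources used here do not give the aligner, the quantifier, their versions or the strand setting.

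Of the 81881 entries of each gene table, the 55536 annotated genes were kept, which held 33671556, 47764593 and 59332546 of the expected counts (replicates 1 to 3). The deposited TPM, summed per symbol, were used for levels, pairs, the comparison of quantifications and transcript shares, and FPKM only in an alternative. Levels and ratios were tested in limma 3.58.1 by a moderated one-sample test on log2(TPM + 0.1), over genes averaging 0.1 TPM or more. Expected counts were rounded and scaled by TMM in edgeR 4.0.16 (R 4.3.3; at least 10 counts in every library; log2 CPM with a prior count of 2). An alternative used the size factors of DESeq2 1.42.0. Both steps were tested on simulated data. Transcripts were compared with BLAST+ 2.17.0 (at least 95% identity over 300 bases) and Biopython 1.88. The 10 genes, the pathway and marker lists and the pairs were chosen with earlier results of these data known, so counts over them are descriptions. All 10 genes are named, as are the 2 highest and the lowest pathway genes of each role and transcripts with a share of at least 10% in either quantification. The sources name no molecular identifiers, so the precision that depth gives covers counting error alone.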

Additional observations from a re-analysis of the deposited data

How the results depend on the processing

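The counts of genes above the reference were 3 of the 10 in the main analysis and 5 with deposited FPKM, where Ripk1 (1.06) and Xiap (1.12) joined them, and they were 2 or 3 under the other alternatives. Those below were 2, and became 1 with FPKM, 1 with a pseudocount of 1 TPM, 4 in the second quantification and 4 with a reference of genes of at least 5 TPM. Of the pathway genes, 26 above became 16 in the second quantification and 13 with the 5 TPM reference, and 8 below became 14, 24 and, with no filter on low values, 14. With FPKM and in the second quantification the cut of 1 was kept on another scale, so each took its own reference genes. Levels against the reference there include that change. With FPKM Cflar moved to 4.23 and Fadd to -1.25 log2 units, while Cflar over Casp8 stayed at 2.70. The 5 TPM reference is higher by construction, which lowers every difference. It turned Ripk1 to -0.20, Xiap to -0.13 and Mlkl to -0.86 log2 units. In the second quantification Mlkl lay -0.11 log2 units from the reference of that quantification, though the gene itself was 0.18 higher there after centring. Casp8 fell short of its call with the 5 TPM reference (0.27), and Tradd did so with FPKM (-0.79), a pseudocount of 1 TPM (-0.84) and protein-coding transcripts alone (-0.97). Birc2 was called below in the second quantification (-1.17) and with the 5 TPM reference (-1.77), where Ripk3 (-1.91) was too. For Mlkl over Ripk3, the values ran from 0.89 with a pseudocount of 1 TPM, where the call was lost, to 1.56 in the second quantification, and without single replicates they ran from 0.94, where the call was lost without replicate 2, to 1.13. The other 5 pairs kept their direction and their side of the difference of 1 under the alternatives run. For Tradd over Fadd, the adjusted p rose to 0.0592 without replicate 2 (limma). Cflar, Birc3 and Fadd kept their calls under all 10 alternatives, with ranges of 2.97 to 4.23, 1.31 to 2.56 and -2.48 to -1.18. Where not named, the cause was not tested. No paired analysis was possible because all libraries belong to 1 group. Depth limits the low genes most, with 274 counts behind Tradd in replicate 1.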
